A study of Homo sapiens with 6 samples.

Results

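The proteasome is the large protease that degrades ubiquitin-tagged proteins. Its core particle is a barrel of alpha rings and beta rings, and its regulatory particle has a base with a ring of ATPases that unfold substrates and a lid that removes ubiquitin. Activators and an inhibitor act on the core, and dedicated chaperones assemble both particles. The genes of these proteins were taken as all protein-coding genes of GENCODE release 29 named PSMA, PSMB, PSMC, PSMD, PSME, PSMF or PSMG followed by digits, which gave 48 of 19969 protein-coding genes. The rule used symbols alone and no measured value, but the family was chosen with earlier results of these data known.

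RNA contacts of 2 proteins were mapped by eCLIP, which pulls down a protein with its crosslinked RNA and sets the recovered fragments against input RNA. All 6 libraries came from HEK293T, an embryonic kidney line carrying the SV40 large T antigen. There were 2 libraries for each of 3 groups: G4PID, an artificial ligase that adds biotin near G-quadruplexes (folds that guanine-rich nucleic acid can take), recovered with an anti-HA antibody, SF3B4 recovered with its own antibody, and input without an antibody. The labels describe transient transfection of G4PID or of the untargeted miniTurboID ligase, followed by 500 µM biotin for 30 min, in text common to all libraries, so it is unclear whether SF3B4 and input cells were also treated. No library of the untargeted ligase was analysed here. Each antibody has 1 peak list from the authors. It holds for each peak a log2 fold over input and a −log10 p, and no value per library, so neither the spread between libraries nor the read depth is known. The values below are descriptions without a test, and an intron is called bound where a peak midpoint lies in its last 100 nt.

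SF3B4 is a subunit of SF3b, the part of the U2 small nuclear ribonucleoprotein that sits on the branch point region of an intron, just upstream of the 3' splice site. During splicing the branch point adenosine attacks the 5' splice site, and the exons are then joined at an AG that ends the intron, usually preceded by a stretch rich in pyrimidines.

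SF3B4 peaks were found in 3 of the 48 proteasome genes, 1 peak in each. PSMB1, which encodes a beta-ring subunit of the core without proteolytic activity, was bound at intron 1 of 5. PSMC5, which encodes an ATPase of the base, was bound at intron 1 of 11. PSMD13, which encodes a structural subunit of the lid, was bound at intron 2 of 12. These genes were 6.25% of the members (95% Wilson interval 2.15 to 16.8%, counting error only), and the share over all protein-coding genes was 9.35% (1867 of 19969), which lies inside that interval. The count is therefore near the background and is not a result about the family. No member had a G4PID peak (0 of 48, against 0.506% or 101 of all protein-coding genes).

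The sequence at the bound 3' splice sites was printed to show where each peak lies against the intron's end. No genome sequence was used here. Bases were read from annotated transcripts of GENCODE release 29 (hg38) that run through the intron, which covered PSMB1 and PSMC5 but not intron 2 of PSMD13. Each run holds 100 intron bases and then 20 exon bases, 5' to 3' in the sense of the gene, and capitals mark the deposited peak. The PSMB1 run is chr6:170549094-170549213 on the minus strand and the PSMC5 run is chr17:63828038-63828157 on the plus strand.
PSMB1 intron 1: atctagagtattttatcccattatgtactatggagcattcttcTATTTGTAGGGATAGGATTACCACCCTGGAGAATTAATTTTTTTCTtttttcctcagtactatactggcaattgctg
PSMC5 intron 1: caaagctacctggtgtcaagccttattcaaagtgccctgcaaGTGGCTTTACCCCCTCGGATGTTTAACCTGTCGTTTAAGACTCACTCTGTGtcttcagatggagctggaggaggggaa
In both genes the capitals stop within the last stretch of the intron and leave its final AG outside the peak.

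The PSMB1 peak (chr6:170549125-170549170, minus strand, 46 nt wide) had a log2 fold of 5.05 and a −log10 p of 8.92. It reached from 57 to 12 nt upstream of exon 2, with its midpoint at −34 nt. The bound intron is 4016 nt long, the 2nd longest of the 5 introns of PSMB1, whose lengths run from 1828 to 6260 nt. It lies within the coding sequence, after 113 coding nt, and splits the codon that follows residue 37 of a 241-residue protein. The other 4 introns had no peak in this list. Of the 2 annotated PSMB1 transcripts, 1 splices to this site and the other, PSMB1-202, starts inside the intron and reads through it.

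The PSMC5 peak (chr17:63828080-63828130, plus strand, 51 nt wide) had a log2 fold of 4.58 and a −log10 p of 12.09, the highest −log10 p of the 3 and the lowest fold. It reached from 58 to 8 nt upstream of exon 2, with its midpoint at −33 nt. The intron is 623 nt long, the 2nd longest of an otherwise compact gene in which the median intron is 107 nt and the longest, intron 2, is 1284 nt. It follows only 24 coding nt, that is 8 codons of 406. This 3' splice site is used by 11 of the 21 annotated PSMC5 transcripts, joined to donors that leave introns of 623 or 214 nt. Another 2 transcripts use a 3' splice site 19 nt further upstream, whose AG is the nearest AG before the one at the end of the intron. Measured from that site the peak midpoint is at −14 nt, and the list does not tell use of the 2 sites apart. Of the 21 transcripts, 9 hold exon 2 as in the reference transcript, 2 share its start but not its end, and 2 skip it.

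The PSMD13 peak (chr11:243971-244040, plus strand, 70 nt wide) had a log2 fold of 4.79 and a −log10 p of 7.28, the lowest −log10 p of the 3. It ran from 70 nt upstream up to the last base of the intron, with its midpoint at −36 nt. Intron 2 is 4964 nt long, the longest of the 12 introns of PSMD13, which otherwise range from 76 to 2515 nt. It follows 174 coding nt, or 58 of 376 codons. The exon it leads into, exon 3 of the reference transcript, has 35 nt (chr11:244041-244075), against a median of 113 nt for the exons that follow introns in all members. It is shown because its use differs between transcripts, as the use of PSMC5 exon 2 also does:
PSMD13 exon 3: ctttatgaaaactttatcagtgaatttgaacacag
Of 15 annotated PSMD13 transcripts, 5 hold this exon as printed, 3 start an exon at the same base but run past its end, and 2 skip it. In all, 8 of 15 use the 3' splice site next to the peak, from donors that leave introns of 4964 or 6896 nt, the longer one without exon 2. The next 3' splice site, 120 nt downstream, is used by 7 transcripts and had no peak.

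**Figure D1:**
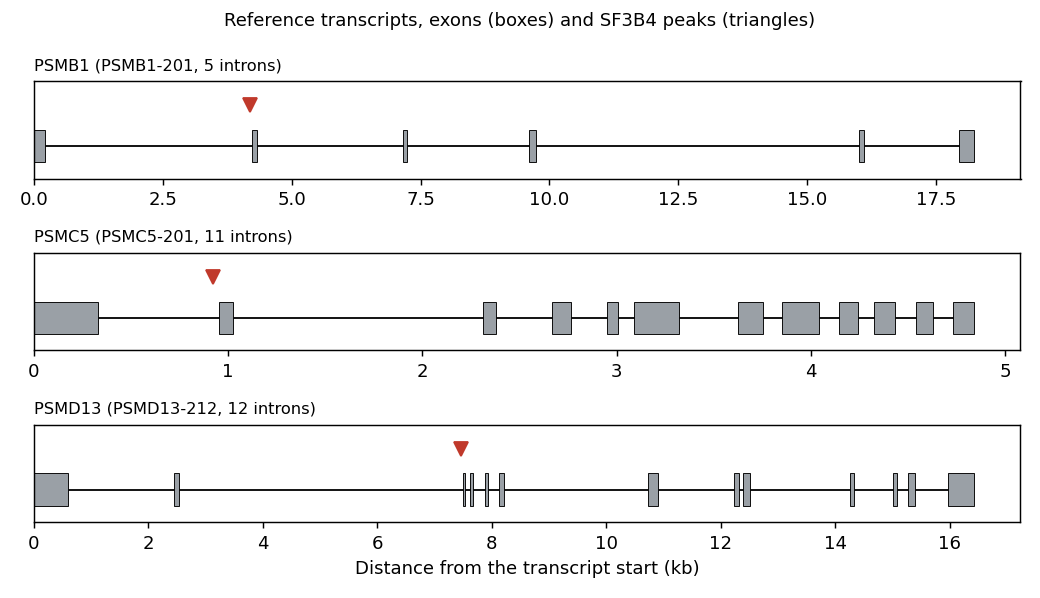
Exons (boxes), introns (lines) and SF3B4 peaks (triangles) of the reference transcripts of PSMB1, PSMC5 and PSMD13, against distance from the transcript start in kb, with a scale of its own for each gene. Each peak stands just before an exon: exon 2 in PSMB1 and PSMC5, and exon 3 in PSMD13, where a long intron 2 puts it nearer to the middle of the gene.

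The 3 midpoints fell close together, at −34, −33 and −36 nt from the exon. All 3 were thus 10 to 60 nt upstream of a 3' splice site (95% Wilson interval of the share 43.9 to 100%, counting error only), as were 69.7% of the 3480 SF3B4 peaks in protein-coding genes. The median over peaks within 1000 nt of a site was −31.0 nt, with quartiles of −42.0 and −16.0 nt, so the member peaks lay inside the middle range of the list. The stretch from 33 to 36 nt, picked because the 3 peaks lie in it, held 9.83% of those 3480 peaks.

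**Figure D2:**
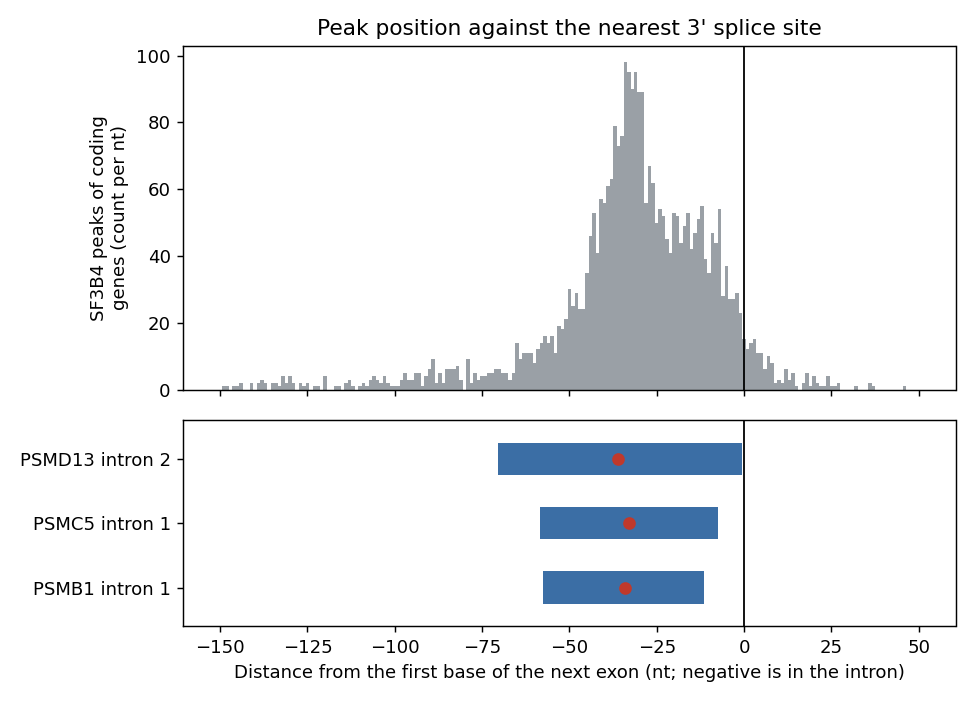
Top, number of SF3B4 peaks in protein-coding genes by distance of the midpoint from the nearest 3' splice site, in nt. Bottom, the extent (bars) and midpoint (red points) of the peaks in PSMB1, PSMC5 and PSMD13. The 3 midpoints, at −34, −33 and −36 nt, stand under the tallest part of the distribution.

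By the authors' fold the PSMB1 peak ranked 345th of 3660 in the SF3B4 list, the PSMD13 peak 583rd and the PSMC5 peak 840th. They were above 89.8%, 83.0% and 75.5% of the list. The member median of 4.79 stands beside 3.91 for all SF3B4 peaks in protein-coding genes and 3.84 for the 1047 genes with a single peak. Fold is a coarse scale here. The same pair of fold and −log10 p was carried by 28 peaks for PSMB1, 38 for PSMD13 and 14 for PSMC5, each count including the member's own.

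Over the 423 introns of the members' reference transcripts, 3 (0.709%, 95% Wilson interval 0.241 to 2.06%) had an SF3B4 midpoint in their last 100 nt. That interval covers counting error only and takes introns of the same gene as independent, which they may not be. The share over 187910 introns of all protein-coding genes was 1.61%, again inside the interval. All 3 bound introns were the first or second of their gene. Introns 1 and 2 held 3 peaks among 93 member introns (3.23%) and later introns 0 among 330. Over all protein-coding genes the shares were 1.26% for introns 1 and 2 and 1.69% for later ones, and introns 1 and 2 made up 15.0% of bound introns. This split was made after the positions of the 3 peaks had been seen, and with 3 introns it is a description.

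Bound member introns were 623, 4016 and 4964 nt long, whereas the median was 912 nt over all member introns and 582 nt over the bound introns of all protein-coding genes. Of the 86 member introns of at most 200 nt none had a peak, while 3.01% of such introns did over all genes. Among introns of 2001 to 5000 nt, 2 of 88 member introns had one, against 1.10% over all genes. The 3 bound introns were each among the 2 longest of their gene. Over all genes with 5 or more introns 15.3% of bound introns were, close to the 14.8% of all introns that are.

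**Figure D3:**
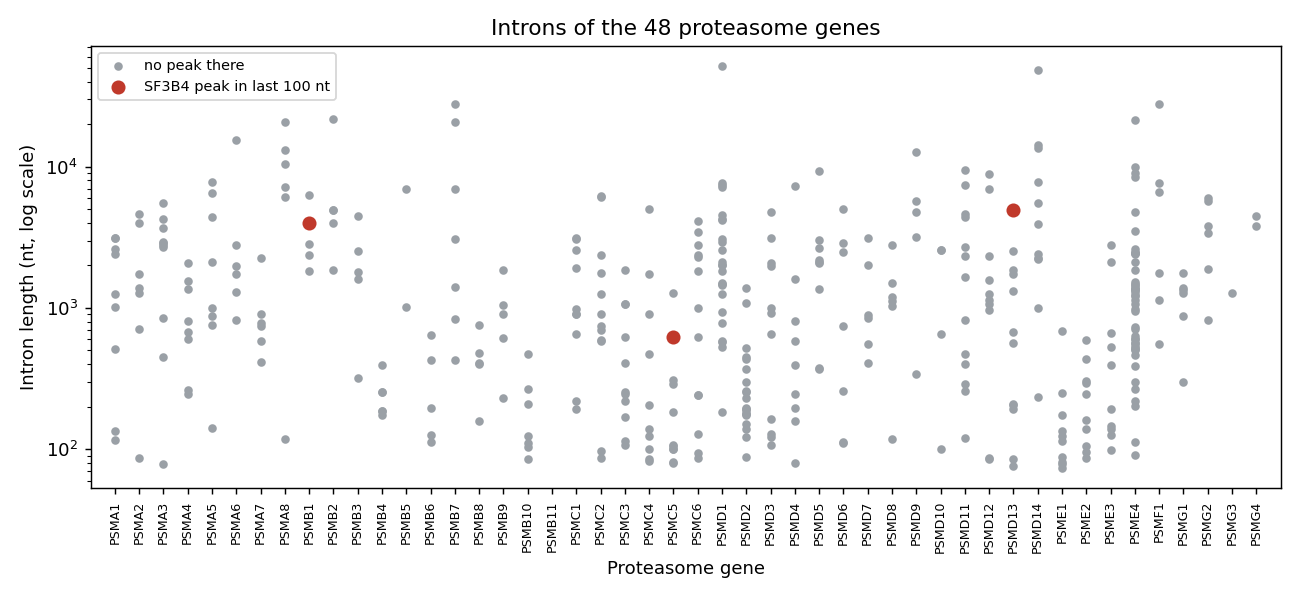
Length in nt (log scale) of every intron of the reference transcripts of the 48 proteasome genes, 1 column per gene. Red points are the 3 introns with an SF3B4 peak in their last 100 nt, in PSMB1 (4016 nt), PSMC5 (623 nt) and PSMD13 (4964 nt), and grey points are the rest. PSMB11 has no intron.

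The 45 genes without an SF3B4 peak covered every role. Over all protein-coding genes 9.35% of genes had a peak, and 1.61% of introns had one in their last 100 nt. The role groups are small, and their counts of 0 or 1, here and in the next paragraph, are not a result about any role. None of the 8 alpha-ring genes (PSMA1 to PSMA8, 60 introns) had one. In the constitutive beta ring, PSMB1 was the only gene of 7 with a peak, and the genes of the catalytic subunits PSMB5, PSMB6 and PSMB7 had none. The beta subunits of immune cells and thymus, PSMB8 to PSMB11, had 0 peaks over 17 introns. Among the 6 base ATPases, which form 1 hexameric ring, PSMC5 alone had a peak, 1 of 67 introns, and PSMC1, PSMC2, PSMC3, PSMC4 and PSMC6 had none. PSMD13 was the only gene of 11 non-ATPase subunits with one, 1 of 129 introns. PSMD14, which encodes the deubiquitinase of the lid, and PSMD4, which encodes a ubiquitin receptor, had none. The base assembly chaperones PSMD5, PSMD9 and PSMD10 had 0 over 18 introns.

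Activators and the remaining factors gave no peak either. PSME1 and PSME2 encode the interferon-induced activator, PSME3 a nuclear one and PSME4 a large single-chain one, and their 76 introns, 46 of them in PSME4, had 0 peaks. The inhibitor gene PSMF1 had 0 over 6 introns and the core assembly chaperones PSMG1 to PSMG4 had 0 over 15. Genes with more introns had an SF3B4 peak more often over all protein-coding genes, from 2.88% with 1 to 4 introns and 7.93% with 5 to 8 to 12.8% with 9 to 12 and 18.6% with 13 or more. For members the counts were 0 of 4, 1 of 22, 2 of 16 and 0 of 5 in the same order, with PSMB11, which has no intron, left over. The list holds only peaks past the authors' thresholds and RNA amount was not measured, so a missing peak does not show a lack of binding.

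The 2 readable bound splice sites were compared with the others for what the peak did not define. From 40 to 4 nt upstream of the exon, pyrimidines made up 73.0% of bases in PSMB1 and 64.9% in PSMC5. The median was 64.9% over the 117 searchable member introns without a peak and 64.9% over 24174 searchable introns of all protein-coding genes. Searchable introns are those whose end lies within an exon of an annotated transcript. They were 119 of 423 member introns, 24174 of 187910 introns of all protein-coding genes and 1315 of the 3024 bound ones. The values here and for the pattern below describe that subset and not introns in general. The longest run of pyrimidines in the last 40 nt was 18 nt in PSMB1 but 5 nt in PSMC5, with a median of 8 nt in both larger sets. The nearest AG before the final one began 28 nt upstream of the exon in PSMB1 and 21 nt in PSMC5, against medians of 34.5 nt over those members and 33.0 nt over all genes. The pyrimidine run of PSMB1 was thus longer, and that of PSMC5 shorter, than the median of the other members.

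A branch-point-like pattern was also searched, on the sense strand only, as any of CTNAC or CTNAT or TTNAC or TTNAT. Its A had to lie in the stretch from 50 to 15 nt upstream of the exon, and a match at the far edge was not counted. PSMB1 held 1, TTAAT with its A at −21 nt, inside the peak. PSMC5 had 2 counted, TTAAC with its A at −33 nt, the position of the peak midpoint, and CTCAC with its A at −15 nt, both inside the peak. A further string of this form in PSMC5, TTTAC with its A 50 nt upstream of the exon, also lies inside the peak but fell at that edge. The pattern was present in 85 of 119 searchable member introns (71.4%), in 58.4% of the searchable introns of all protein-coding genes and in 58.6% of those with an SF3B4 peak. A match is a string of letters and not a mapped branch point.

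Introns without a peak in the same genes are shown for contrast, with the final AG of the intron in capitals. PSMC5 intron 2 (chr17:63829394-63829513) is the next intron after the bound one, and PSMD13 intron 3 (chr11:244061-244180) follows the bound PSMD13 intron. PSMD13 intron 3 is 85 nt long, so its run begins in exon 3.
PSMC5 intron 2: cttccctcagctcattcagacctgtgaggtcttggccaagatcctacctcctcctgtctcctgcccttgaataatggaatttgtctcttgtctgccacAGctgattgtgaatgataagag
PSMD13 intron 3: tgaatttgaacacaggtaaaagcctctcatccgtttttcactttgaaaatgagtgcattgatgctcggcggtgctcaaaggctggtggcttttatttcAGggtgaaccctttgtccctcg
PSMC5 intron 2 had 62.2% pyrimidines in the same stretch, no match to the pattern and its nearest earlier AG at 62 nt. PSMD13 intron 3 had 54.1% pyrimidines, 1 match (TTGAT, A at −40 nt) and an earlier AG at 22 nt. The pyrimidine share of PSMC5 intron 2 was thus close to the 64.9% of bound intron 1.

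Other genes of the ubiquitin and proteasome pathway were read from a list of 32 symbols, of which 31 matched. SF3B4 peaks stood in 7 of the 31 (22.6%, 95% Wilson interval 11.4 to 39.8%), with 14 peaks and a median log2 fold of 4.40. The share over all protein-coding genes was 9.35%. By introns it was 14 of 417 (3.36%) in the list and 1.61% over all protein-coding genes. The list was chosen with earlier results known, and its genes differ in intron number. The difference from all genes was not tested. HUWE1, a large ubiquitin ligase, had 3 peaks with a highest log2 fold of 5.47, at introns 3, 62 and 71 of 82. UBA1, the main ubiquitin-activating enzyme, had 3 at introns 5, 7 and 16 of 25, up to 5.39. VCP, the ATPase that extracts ubiquitinated proteins, had 2 up to 4.79, and its cofactor NPLOC4 had 2 up to 4.64. RPS27A, which encodes a fusion of ubiquitin with a ribosomal protein, had 2 at introns 2 and 4 of 5, and UBA6, another ubiquitin-activating enzyme, had 1. The proteasome's own non-PSM partners POMP, SEM1, ADRM1, UCHL5 and USP14, and NFE2L1, the transcription factor of proteasome genes, had none. None of the 31 had a G4PID peak.

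Families that encode other housekeeping machinery were set beside the members. The CCT chaperonin, which folds actin and tubulin, had SF3B4 peaks in 6 of 9 genes (66.7%, 95% Wilson interval 35.4 to 87.9%) and at 13 of 113 introns. Aminoacyl-tRNA synthetase genes had them in 13 of 37 (35.1%, 21.8 to 51.2%) and at 38 of 590 introns. Mitochondrial ribosomal protein genes had them in 7 of 78 (8.97%, 4.42 to 17.4%) and at 7 of 334 introns. The share was 6.25% in proteasome genes and 9.35% over all protein-coding genes. By introns the shares were 11.5%, 6.44% and 2.10% in these families, 0.709% in proteasome genes and 1.61% over all protein-coding genes. The families were chosen with earlier results known, no difference between them was tested, they differ in intron number and RNA amount was not measured. Median log2 folds of the peaks were 4.69, 4.09 and 3.48 in the same order. No gene of the 3 families had a G4PID peak.

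**Figure D4:**
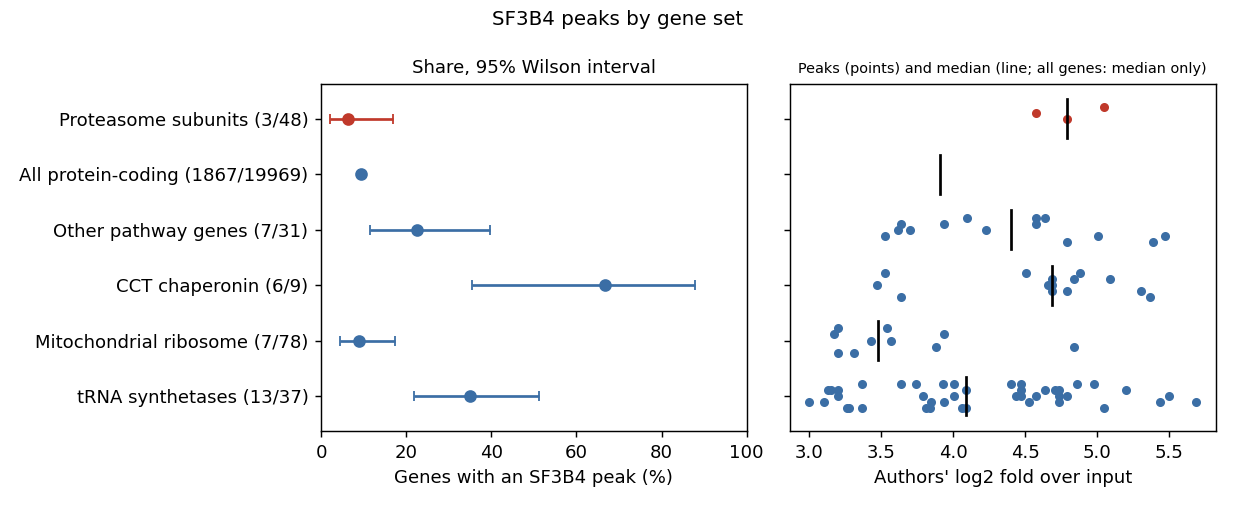
Left, percentage of genes with an SF3B4 peak in each gene set, with 95% Wilson intervals and the counts in the labels. Right, the authors' log2 fold of each peak (points) and the median (line), with the median only for all protein-coding genes. Proteasome genes (red) had 3 of 48 genes with a peak, and the 3 peaks had log2 folds of 4.58, 4.79 and 5.05.

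G4PID peaks were absent from the members, some of whose mRNAs carry letters that can form a quadruplex. The motif searched was 4 stretches of 3 or more G with loops of 1 to 7 nt, on the sense strand of the spliced reference transcripts. It was present in 9 of 48 members (18.8%) and in 24.1% of 19940 protein-coding transcripts. Those 9 were PSMB10, PSMB11, PSMC1, PSMD2, PSMD3, PSMD8, PSMD11, PSME2 and PSME4, and none of them was among the 3 genes with an SF3B4 peak. PSMB10, a beta subunit of the immunoproteasome, was the only member whose shortest match lay in coding sequence (chr16:67934878-67934906, minus strand), shown with the runs of G in capitals.
PSMB10 coding motif: GGGatcttGGGtgacctGGGctccGGGGG
In 4 members, PSMD2, PSMD11, PSME2 and PSME4, the shortest match was in the 5'UTR, and in PSMB11, PSMC1, PSMD3 and PSMD8 it was in the 3'UTR. Over all protein-coding genes with the motif, 41 of 4808 (0.853%) had a G4PID peak. At that share, the lack of a G4PID peak in 9 members is not a result about them. The motif was searched in spliced transcripts only, whereas peaks were placed over whole genes, introns included.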

How the data were processed

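The tools named in the submitters' processing notes are cutadapt 3.4 and STAR 2.7.0d, with builds hg19 and hg38; the names of the deposited lists give hg38. Not given in the sources used here are the peak caller, its filters and how libraries were joined. The deposited lists have no header, and their values were read as the authors' −log10 p-value and log2 fold over input from column order and range (above 5 and above 3).

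Starts were read as 0-based and are given 1-based. Peak midpoints were placed in genes of GENCODE release 29 on the same strand. Introns were numbered on the principal APPRIS transcript, then the longest coding sequence. An intron counted as bound with a midpoint in its last 100 nt. Distances used basic transcripts. Intron bases came from single transcript exons spanning the whole window. The code of the intron count was checked on simulated peaks planted at known introns, which does not test the rule itself. Python 3.11.15, numpy 2.4.6, scipy 1.17.1 and matplotlib 3.10.9 were used.

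The members, the role groups and the compared lists were chosen with earlier results of these data known. Every member with a peak is named, and 1 gene of the pathway list is not reported here by name; sequences follow the readable bound introns, and the contrasting introns, the exon and the quadruplex motif were chosen after their values were seen.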

Additional observations from a re-analysis of the deposited data

How the results depend on the processing

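No paired analysis was possible because each antibody has 1 list over both libraries, and for the same reason no library could be left out. With a −log10 p of at least 10, members with an SF3B4 peak fell to 1 and SF3B4 peaks in members to 1, PSMC5, while 4.31% of all protein-coding genes and 41.6% of the list passed. With a log2 fold of at least 4 all 3 members stayed, while the share over all protein-coding genes went from 9.35% to 5.56%, so the members' 6.25% stood below the first and above the second. With the 5' end of the peak in place of its midpoint, the median distance to the 3' splice site was −58 nt, and 66.7% of member peaks lay 10 to 60 nt upstream, since the PSMD13 peak begins at −70 nt. The other alternatives (any overlap, other transcript sets, other stretches, joined peaks) left the 3 genes, 3 introns and 0 G4PID genes in number. Depth is unknown, so a missing peak sets no upper limit on binding.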

Other observations

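SF3B4 peaks on the opposite strand lay within 5000 nt of 3 members and were not counted for them. One was inside the span of PSMA3, in the antisense transcript PSMA3-AS1 and in ARMH4, with a log2 fold of 4.20. Another was inside the span of PSMG4, in SLC22A23, a transporter gene, with a log2 fold of 4.93. The third was 391 nt outside PSMC5, in FTSJ3, which encodes a ribosomal RNA methyltransferase, with a log2 fold of 4.64. No G4PID peak lay within that distance of any member on either strand.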
